A study of Mus musculus with 8 samples.

Results

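The genes described here encode 10 enzymes and complex subunits that place or remove repressive marks on chromatin: the Polycomb genes Ezh1, Ezh2, Eed, Suz12 and Bmi1, the DNA methyltransferase genes Dnmt1, Dnmt3a and Dnmt3b, and the methylcytosine oxidase genes Tet1 and Tet2. They were taken by name from the scanner files, with every non-control probe that carries one of these names, which gave 10 of the 19538 genes tested and 18 of 39429 probes. RNA came from 4 populations of cells sorted from E10.5 mouse embryos carrying the Ly6a-GFP transgene, in which GFP reports activity of Ly6a (Sca-1) regulatory sequence. The embryos were from F1 females of C57BL/6 and 129S1/SVImJ parents mated to Tg(Ly6a-GFP) males, the labels give the sex as male, and the AGM region with the umbilical and vitelline arteries of 100 embryos was pooled. The GFP+ hematopoietic cluster group held 30000 cells and the GFP- hematopoietic cluster group 130000 cells, both sorted as CD31+ VEC+ ESAM+ Kit+. The GFP+ endothelial group held 70000 cells and the GFP- endothelial group 300000 cells, sorted as CD31+ VEC+ ESAM+ Kit-. All 4 groups carry the transgene and no treatment was given. Each group's RNA was split into 2 fractions, each amplified and put on its own 1-colour array, so the 2 arrays of a group measure technical spread only and the p-values do not cover differences between pools of embryos.

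Polycomb repressive complex 2 writes trimethylation on lysine 27 of histone H3 through Ezh2 or its paralogue Ezh1, with Eed and Suz12 as obligate partners, and Polycomb repressive complex 1, which contains Bmi1 in one of its forms, reads that mark and ubiquitylates histone H2A. Dnmt1 copies cytosine methylation after replication, Dnmt3a and Dnmt3b set it on unmethylated DNA, and the Tet enzymes oxidise methylcytosine as a step towards its removal. In adult mouse hematopoietic stem cells Dnmt3a, Tet2, Ezh2 and Bmi1 are known for their effects on self-renewal and differentiation. Clusters of Kit+ cells bud from the hemogenic endothelium of the large arteries at midgestation and hold the forming stem and progenitor cells.

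Levels are log2 of the processed signal minus the 75th percentile of the same array, so a level of 0 equals that percentile, and levels are compared only within a probe. The sort was visible in the arrays. The level of Ly6a was higher by 3.39 in GFP+ than in GFP- cluster cells and by 4.07 in GFP+ than in GFP- endothelial cells, and that of Kit averaged 2.87 and 1.98 in GFP+ and GFP- cluster cells against 1.32 and 1.34 in GFP+ and GFP- endothelial cells. Cdh5, Pecam1 and Esam were well above background on all 8 arrays. The 75th percentile ran from 708 to 1477 signal units over the arrays, and 54.6% to 63.7% of probes were well above background. The groups differed in genes of other cell types. The summed linear level of 8 erythroid genes, 7 of them well above background on every array, in units of the 75th percentile, was 19.8 to 20.5 in GFP+ and 234 to 235 in GFP- cluster cells, and 24.7 to 25.7 in GFP+ and 115 to 118 in GFP- endothelial cells. For 8 macrophage genes, 5 of them well above background on every array, the sum was 17.7 to 18.3 in GFP+ and 4.52 to 4.98 in GFP- cluster cells, and 4.87 to 5.28 in GFP+ and 2.19 to 2.22 in GFP- endothelial cells. For 8 mesenchyme genes, each well above background on all 8 arrays, it was 10.7 to 11.0 in GFP+ and 18.5 on both GFP- cluster arrays, and 19.0 to 19.5 in GFP+ and 24.9 to 25.3 in GFP- endothelial cells. For 6 endothelial genes, also well above background on all 8 arrays, it was 70.9 to 73.3 in GFP+ and 89.5 to 90.7 in GFP- cluster cells, and 96.5 to 97.5 in GFP+ and 101 to 106 in GFP- endothelial cells. In such bulk samples fewer cells of a type and less RNA per cell cannot be told apart.

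Promoter sequence is shown for the 2 de novo methyltransferase genes, because their levels were ordered differently over the groups. All 10 genes matched RefSeq's promoter table (GRCm38.p6), with 14 promoters of 300 bases, 250 before and 50 after the annotated start. The 250 bases before the start are printed 5′ to 3′ on the plus strand for Dnmt3b (chr2:153649199-153649448) and for the first of 3 Dnmt3a starts (chr12:3806730-3806979), with GGGCGG, the core of the GC box, and its reverse complement in capitals.
Dnmt3b: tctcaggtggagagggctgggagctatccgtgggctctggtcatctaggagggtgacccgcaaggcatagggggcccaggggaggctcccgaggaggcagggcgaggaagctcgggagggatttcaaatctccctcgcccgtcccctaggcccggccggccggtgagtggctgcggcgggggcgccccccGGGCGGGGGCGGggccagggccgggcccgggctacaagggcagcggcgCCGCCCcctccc
Dnmt3a: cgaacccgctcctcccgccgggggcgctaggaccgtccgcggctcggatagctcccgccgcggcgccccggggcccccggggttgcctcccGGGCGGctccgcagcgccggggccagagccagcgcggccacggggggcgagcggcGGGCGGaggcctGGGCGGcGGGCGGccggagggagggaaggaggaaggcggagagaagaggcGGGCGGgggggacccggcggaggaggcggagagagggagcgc
The Dnmt3b stretch held 3 matches to the GC box and the Dnmt3a stretch 5. GGGCGG on either strand was present in 9 of the 14 promoters, from 7 of the 10 genes, and in 35.7% of 32851 promoters of the same length. The number of CG dinucleotides in 300 bases had a median of 7 over all promoters. It was 30 for Dnmt3b, 46, 47 and 18 for the 3 Dnmt3a promoters, 57 for Tet2, 41 for Suz12 and 17 for Tet1. Ezh2 had 31, Ezh1 and Bmi1 had 23, and Eed had 17. The Dnmt1 promoters had 33, 12 and 2, the last of these below the median.

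A second set is shown because E2F sites are known from promoters of replication genes. The E2F octamers TTTCCCGC and TTTGGCGC, searched on both strands, occurred in 3 of the 14 promoters and in 1.57% of all promoters. Like GGGCGG, these octamers hold a CG, and the shares over all promoters were not matched for CG content. The 3 promoters belong to 3 of the 10 genes, and the other Dnmt1 promoters had no match. Stretches around them are printed 5′ to 3′ in the direction of the gene, with the octamer in capitals, for Ezh2 (chr6:47595010-47595037, minus strand), Suz12 (chr11:79992877-79992904, plus strand) and Dnmt1 (chr9:20952574-20952600, minus strand).
Ezh2: ggttgctgcgTTTGGCGCtcggtccggt
Suz12: gacccctcatTTTCCCGCgaattcagtt
Dnmt1: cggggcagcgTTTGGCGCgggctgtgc
No octamer shared a base with a GGGCGG match. The octamer lay before the annotated start in Suz12 and within the 50 bases after it in Ezh2 and Dnmt1. CCGGAAG, an ETS core searched the same way, was in none of the 14 promoters and in 8.86% of all promoters.

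Dnmt3b had the widest range of the 10 genes, and its level differed between all 4 groups. By the brightest probe that carried no flag (mm9 chr2:153512098-153512157, plus strand, from base 2950 of the transcript), Dnmt3b stood at 2.37 and 2.39 on the GFP+ cluster arrays and at 0.90 and 1.01 on the GFP- cluster arrays. The endothelial arrays read 0.54 and 0.55 in GFP+ cells and 0.30 and 0.15 in GFP- cells. No array of one group overlapped with an array of another. The span between the highest and lowest group mean was 2.15, a 4.44-fold difference, and 18.2% of all genes tested spanned at least 1 log2 unit.

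In cluster cells Dnmt3b was 2.69-fold higher in GFP+ than in GFP- cells, a log2 difference of 1.43 ± 0.066 (SE, limma adjusted p = 9.08e-05), and it ranked 546 of 19538 genes by size of difference. In endothelial cells the GFP difference was 1.25-fold (0.32 ± 0.066, adjusted p = 0.0105). Between cell classes Dnmt3b was 3.56-fold higher in GFP+ cluster than in GFP+ endothelial cells (log2 difference 1.83, adjusted p = 4.02e-05) and 1.65-fold higher in GFP- cluster than in GFP- endothelial cells (0.73, adjusted p = 0.00234). The GFP difference was larger in cluster than in endothelial cells by 1.10 ± 0.094 on the log2 scale (adjusted p = 0.00214 for the interaction). Within the slides that hold replicate 1 and replicate 2, that interaction was 1.22 and 0.99.

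A second Dnmt3b probe, further towards the 3′ end of the transcript (chr2:153512991-153513050), read 2.16 and 2.16 in GFP+ cluster, 1.01 and 1.03 in GFP- cluster, 0.53 and 0.58 in GFP+ endothelial and 0.33 and 0.39 in GFP- endothelial cells. Its 4 differences were 1.14, 0.20, 1.61 and 0.66, in the order given above, and each passed the test over 24364 probes. Another, brighter probe was left out because its spot on the first GFP+ cluster array was flagged as non-uniform. It read 3.94 on that array and 4.52 on the other, 3.42 and 3.27 in GFP- cluster, 2.77 and 2.72 in GFP+ endothelial and 2.57 and 2.57 in GFP- endothelial cells, which is the same order of groups. With the flagged spot kept, so that this probe stands for the gene, the endothelial GFP difference was 0.18 (adjusted p = 0.449) and the interaction 0.71 (adjusted p = 0.0910), and neither passed.

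Sums over cell type markers moved with Dnmt3b. The summed level of 6 hematopoietic cluster markers (Runx1, Itga2b, Myb, Ptprc, Kit and Spn, each well above background on all 8 arrays) was 20.7 to 21.4 in GFP+ and 7.61 to 7.63 in GFP- cluster cells, and 3.56 to 3.63 in GFP+ and 3.15 to 3.20 in GFP- endothelial cells. These groups stood in the same order as for Dnmt3b. The macrophage sum given above was also highest in GFP+ cluster and lowest in GFP- endothelial cells, with GFP- cluster and GFP+ endothelial arrays overlapping, and the mesenchyme and endothelial sums ran in the reverse order of Dnmt3b. The part of any of these in the Dnmt3b differences was not tested. The genes whose level over the 8 arrays was most like that of Dnmt3b, among 2453 named genes with a span of at least 1 log2 unit, were Def6, Tbc1d10c and Map3k6, each with a Pearson r of 0.998. Def6, which encodes a guanine nucleotide exchange factor, averaged 3.02 in GFP+ and 1.71 in GFP- cluster cells and 1.26 in GFP+ and 1.02 in GFP- endothelial cells. These correlations describe 4 group means measured 2 times each.

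**Figure D1:**
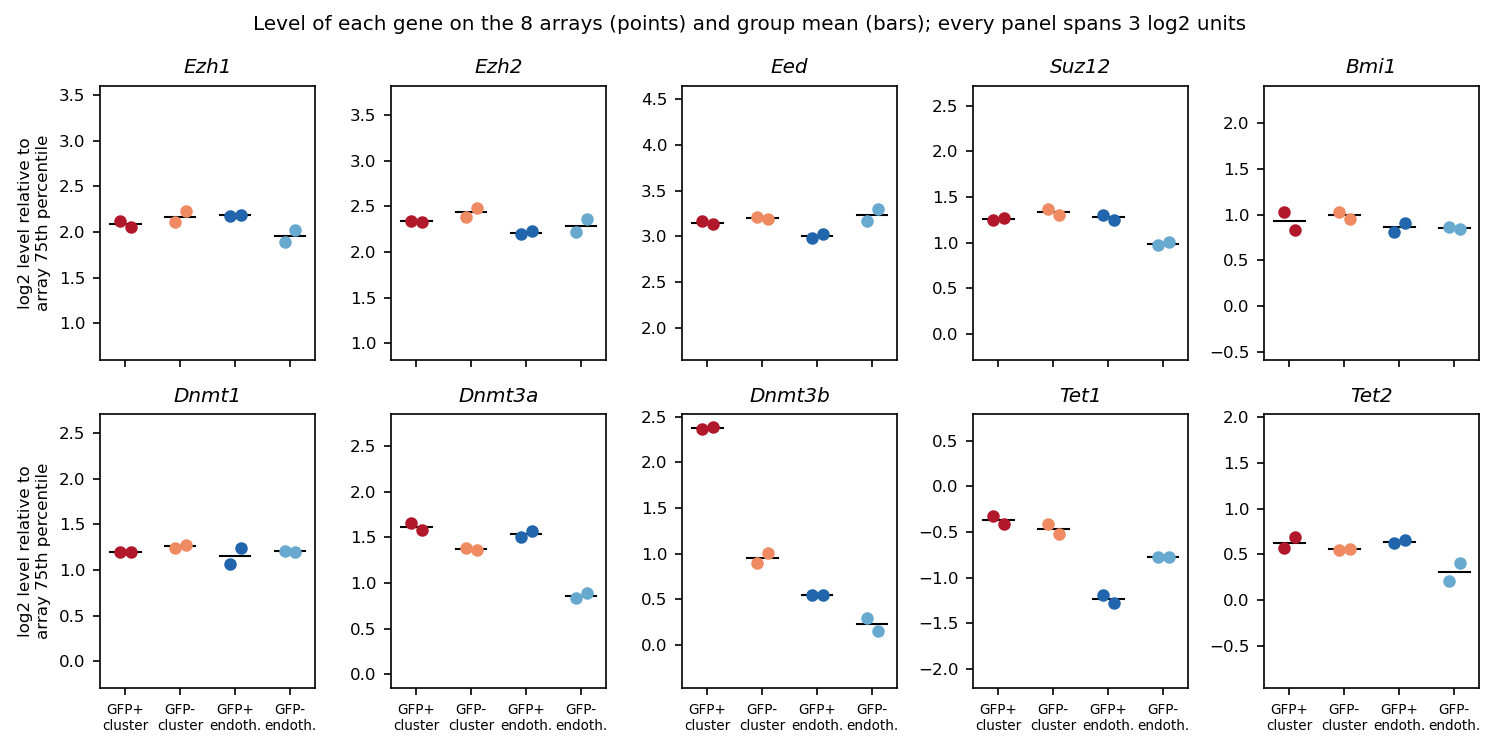
Level of each of the 10 genes on the 8 arrays (log2 of processed signal relative to the array's 75th percentile, vertical axis) in the 4 sorted groups (horizontal axis); points are arrays, bars are group means and every panel spans the same number of log2 units. Dnmt3b has means of 2.38 and 0.95 in GFP+ and GFP- cluster cells and of 0.55 and 0.23 in GFP+ and GFP- endothelial cells, Dnmt3a is low in GFP- endothelial cells (mean 0.86), Tet1 is low in GFP+ endothelial cells (mean -1.23), and Dnmt1 is nearly flat.

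Dnmt3a, the other de novo methyltransferase, shared its highest and lowest groups with Dnmt3b and had the middle groups in the other order. Its probe (mm9 chr12:3914320-3914379, plus strand, from base 9611 of the transcript) read 1.65 and 1.58 in GFP+ cluster, 1.39 and 1.36 in GFP- cluster, 1.50 and 1.57 in GFP+ endothelial and 0.84 and 0.89 in GFP- endothelial cells. GFP- endothelial cells were lowest, and the other groups lay close together. In endothelial cells Dnmt3a was 1.59-fold higher in GFP+ than in GFP- cells (log2 difference 0.67 ± 0.051, adjusted p = 0.000498), and among GFP- cells it was 1.43-fold higher in cluster than in endothelial cells (0.51, adjusted p = 0.00314). In GFP+ cells the difference between cluster and endothelial cells did not pass (0.082 ± 0.051, adjusted p = 0.229). In cluster cells Dnmt3a was 1.18-fold higher in GFP+ than in GFP- cells (0.24 ± 0.051, adjusted p = 0.0173), a call that was lost at an adjusted p of 0.0768 with dim probes kept in the test, 0.0576 with the compared groups alone in the fit, 0.0768 without the first GFP+ cluster array, and 0.0714 or 0.0845 without the first or the second GFP- cluster array. The interaction was -0.43 ± 0.073 (adjusted p = 0.0107), opposite in sign to that of Dnmt3b, and this call was lost with dim probes kept in the test (adjusted p = 0.0514). The probe lies near the 3′ end, so transcripts from the 3 annotated starts are not told apart.

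Dnmt1, the maintenance methyltransferase, passed the test in no contrast. Its probe (mm9 chr9:20711973-20712341, minus strand) read 1.20 and 1.20 in GFP+ cluster, 1.24 and 1.28 in GFP- cluster, 1.07 and 1.24 in GFP+ endothelial and 1.21 and 1.20 in GFP- endothelial cells. The group means spanned 0.10, less than the gap between the 2 GFP+ endothelial arrays.

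By its brightest probe, Tet1 was lowest in GFP+ endothelial cells and separated the cell classes. That probe (mm9 chr10:62274448-62274507, minus strand, from base 6796 of the transcript) read -0.33 and -0.41 in GFP+ cluster, -0.41 and -0.52 in GFP- cluster, -1.19 and -1.27 in GFP+ endothelial and -0.77 and -0.77 in GFP- endothelial cells. The cluster arrays overlapped with each other across GFP and stood above all 4 endothelial arrays. Tet1 was 1.82-fold higher in GFP+ cluster than in GFP+ endothelial cells (log2 difference 0.86, adjusted p = 0.000307) and 1.24-fold higher in GFP- cluster than in GFP- endothelial cells (0.31, adjusted p = 0.0224). The second of these calls was lost without any 1 of the 4 GFP- arrays (adjusted p from 0.0522 to 0.101), with dim probes kept (0.0910) and with the compared groups alone (0.0587). In endothelial cells Tet1 was lower in GFP+ than in GFP- cells by 0.46 ± 0.063 on the log2 scale (adjusted p = 0.00264), whereas the difference in cluster cells was 0.095 ± 0.063 (adjusted p = 0.305). The interaction was 0.56 ± 0.089 (adjusted p = 0.00924).

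The 3 Tet1 probes differed in their GFP differences. The probe from base 3128 gave the groups in the same order as the brightest probe, whereas that from base 5202 did not. The probe from base 3128 of the transcript read -1.59 and -1.56 in GFP+ cluster, -2.03 and -2.08 in GFP- cluster, -2.72 and -2.82 in GFP+ endothelial and -2.57 and -2.61 in GFP- endothelial cells. By that probe Tet1 rose by 0.48 in GFP+ over GFP- cluster cells (adjusted p = 0.00182 over all probes) and fell by 0.18 in GFP+ against GFP- endothelial cells (adjusted p = 0.0341). It was higher in cluster than in endothelial cells by 1.19 among GFP+ and by 0.54 among GFP- cells, and both passed. Its interaction was 0.65 (adjusted p = 0.00409). The probe from base 5202 had a standard error of 0.25 per difference and passed in no contrast. It read -2.16 and -1.86 in GFP+ cluster, -2.27 and -1.53 in GFP- cluster, -2.14 and -2.29 in GFP+ endothelial and -2.44 and -2.49 in GFP- endothelial cells, so that GFP- endothelial cells were lowest and the other groups overlapped. With the mean of the 3 probes the endothelial GFP difference was -0.13 (adjusted p = 0.216) and the interaction 0.28 (adjusted p = 0.112), and neither passed.

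Tet2 was lowest in GFP- endothelial cells. Its brightest probe (mm9 chr3:133126751-133126810, minus strand, from base 9011) read 0.57 and 0.68 in GFP+ cluster, 0.55 and 0.56 in GFP- cluster, 0.62 and 0.65 in GFP+ endothelial and 0.21 and 0.40 in GFP- endothelial cells. In endothelial cells Tet2 was 1.26-fold higher in GFP+ than in GFP- cells (log2 difference 0.33 ± 0.078, adjusted p = 0.0161), and the second probe gave 0.60 (adjusted p = 0.00384). The call by the brightest probe was lost without either GFP+ endothelial array or without the first GFP- endothelial array (adjusted p from 0.0554 to 0.0670). Among GFP- cells the difference between cluster and endothelial cells was 0.25 (adjusted p = 0.0688). It passed with the replicate number as a block (adjusted p = 0.0418) and with genes well above background on all 8 arrays (0.0450). It also passed with the mean of the probes (0.28, adjusted p = 0.0304) and with trend and robust moderation (0.0192). The second probe had an interaction of -0.53 that passed (adjusted p = 0.0301), where the brightest had -0.26 (adjusted p = 0.122). With the mean of the probes the interaction was -0.40 and passed (adjusted p = 0.0252).

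**Figure D2:**
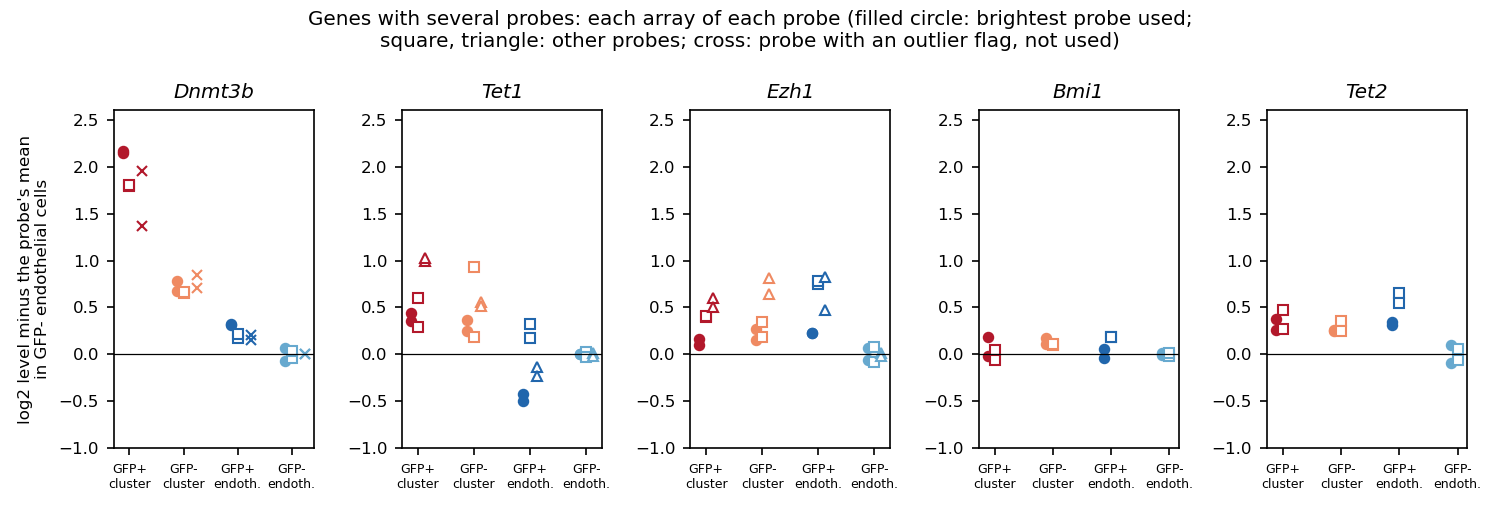
Genes with several probes: each array of each probe as its log2 level minus that probe's mean in GFP- endothelial cells (vertical axis) in the 4 groups (horizontal axis). The Dnmt3b probes, including the one left out for its flag, keep the same order of groups, whereas the Tet1 probes differ in the height of GFP+ endothelial cells and the other Ezh1 probes rise further than the brightest one, by 0.65 and 0.76 in GFP+ over GFP- endothelial cells.

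Among the core subunits of Polycomb repressive complex 2, the group means by the brightest probe spanned 0.22 for Ezh2 and 0.35 for Suz12. Suz12, the subunit that holds the complex together, read 1.25 and 1.27 in GFP+ cluster, 1.37 and 1.31 in GFP- cluster, 1.30 and 1.25 in GFP+ endothelial and 0.97 and 1.004 in GFP- endothelial cells (mm9 chr11:79847251-79847310, plus strand). GFP- endothelial cells stood below every other array. Suz12 was 1.22-fold higher in GFP+ than in GFP- endothelial cells (log2 difference 0.29 ± 0.046, adjusted p = 0.00466) and 1.27-fold higher in GFP- cluster than in GFP- endothelial cells (0.35, adjusted p = 0.00688). In cluster cells the GFP difference was -0.078 ± 0.046 (adjusted p = 0.259), and the interaction was -0.37 ± 0.066 (adjusted p = 0.0126), a call lost with dim probes kept in the test (adjusted p = 0.0613).

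Ezh2, the main H3K27 methyltransferase of dividing cells, passed in no contrast. It read 2.34 and 2.33 in GFP+ cluster, 2.39 and 2.48 in GFP- cluster, 2.19 and 2.23 in GFP+ endothelial and 2.21 and 2.36 in GFP- endothelial cells (mm9 chr6:47480307-47480366, minus strand). Its largest difference was 0.15 ± 0.065, for GFP- cluster over GFP- endothelial cells (adjusted p = 0.153).

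Ezh1, the paralogue found also in non-dividing cells, read 2.12 and 2.06 in GFP+ cluster, 2.11 and 2.23 in GFP- cluster, 2.18 and 2.18 in GFP+ endothelial and 1.89 and 2.02 in GFP- endothelial cells (mm9 chr11:101052430-101052489, minus strand). In endothelial cells it was 1.17-fold higher in GFP+ than in GFP- cells (log2 difference 0.23 ± 0.068, adjusted p = 0.0356), and its other probes gave 0.65 and 0.76, both called. The call by the brightest probe was lost without either GFP+ endothelial array or without the first GFP- one (adjusted p from 0.109 to 0.150), with dim probes kept (0.0953) and with the compared groups alone (0.0612). Those other probes also gave interactions of -0.83 and -0.63 that passed, where the brightest gave -0.31 (adjusted p = 0.0595).

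Eed, which binds trimethylated H3K27, read 3.16 and 3.13 in GFP+ cluster, 3.20 and 3.18 in GFP- cluster, 2.99 and 3.02 in GFP+ endothelial and 3.17 and 3.29 in GFP- endothelial cells (mm9 chr7:97103264-97103323, minus strand). It was the only gene of the core complex called lower, by 0.23 ± 0.056 on the log2 scale in GFP+ against GFP- endothelial cells (adjusted p = 0.0190). This call depended on scaling, since the difference was -0.062 (adjusted p = 0.369) after quantile normalization and -0.092 (adjusted p = 0.183) in the authors' normalized table. It was also lost without either GFP+ endothelial array or without the second GFP- one (adjusted p from 0.0549 to 0.0867), with dim probes kept (0.0652) and with the compared groups alone (0.0617).

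Bmi1, the PRC1 subunit also called Pcgf4, did not pass by its brightest probe in any contrast. It read 1.03 and 0.83 in GFP+ cluster, 1.03 and 0.96 in GFP- cluster, 0.81 and 0.91 in GFP+ endothelial and 0.86 and 0.84 in GFP- endothelial cells (mm9 chr2:18607531-18607590, plus strand). The other probe gave 0.19 for GFP+ over GFP- endothelial cells (adjusted p = 0.0287) and -0.19 for GFP+ cluster against GFP+ endothelial cells (adjusted p = 0.0273). Its interaction of -0.30 also passed (adjusted p = 0.0306), where the brightest probe had -0.073 (adjusted p = 0.649).

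Counted over the 10 genes, 2 rose and 0 fell in GFP+ against GFP- cluster cells, where 32.7% of all genes were called and 11.8% were called higher. In GFP+ against GFP- endothelial cells 5 rose and 2 fell, beside 51.5% of all genes called, 18.1% higher and 33.3% lower. In GFP+ cells 2 rose and 0 fell in cluster against endothelial cells, beside 50.4% called and 26.1% called higher. In GFP- cells 4 rose and 0 fell in cluster against endothelial cells, beside 24.3% called and 11.9% called higher. The interaction was positive and called for 2 genes, Dnmt3b and Tet1, and negative and called for 2, Dnmt3a and Suz12, beside 31.1% of all genes called, 15.7% with a positive and 15.5% with a negative sign. Past 2-fold only Dnmt3b was called, in cluster cells by GFP (5.38% of all genes), in GFP+ cells by class (9.87%) and in the interaction (5.68%), and none of the 10 reached it in endothelial cells by GFP (7.16%) or in GFP- cells by class (2.14%). The 4 contrasts share groups in pairs, so their counts are not independent. With normexp background correction the only calls left among the 10 genes were those of Dnmt3b in cluster cells by GFP and in GFP+ cells by class, and all 4 interactions were lost (adjusted p from 0.365 to 0.611). Without 2 spots of high local background, a setting chosen after seeing the data, normexp called 1, 6, 2, 4 and 3 of the 10 in the order above.

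The endothelial contrast moved with scaling. The median log2 difference of all genes was -0.13 in GFP+ against GFP- endothelial cells, against -0.026 after quantile normalization, and 35.2% of calls were higher, against 50.7% after quantile normalization and 48.4% in the authors' table. Relative to that median the endothelial GFP differences were 0.80 for Dnmt3a, 0.46 for Tet2, 0.45 for Dnmt3b, 0.42 for Suz12, 0.35 for Ezh1, -0.097 for Eed and -0.33 for Tet1. The erythroid and macrophage sums given above differed between these groups too, and their part in these differences was not tested.

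**Figure D3:**
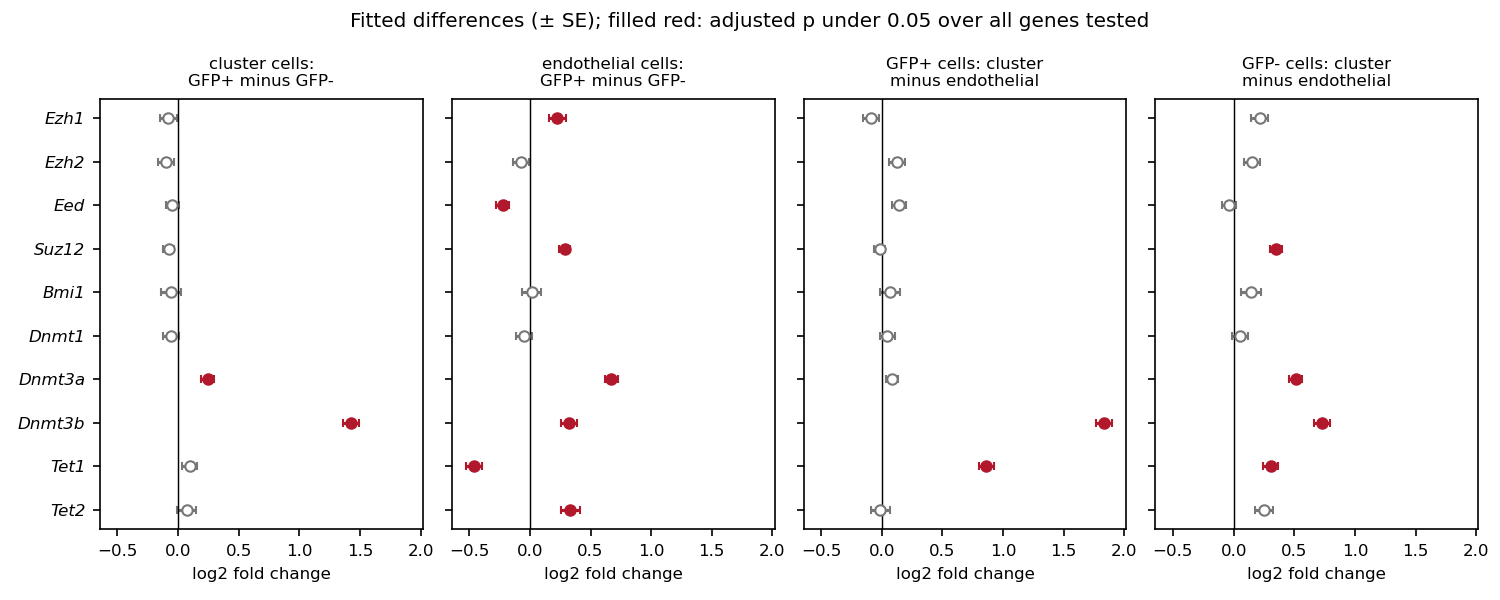
Fitted log2 differences of the 10 genes (horizontal axis, bars are standard errors) in the 4 contrasts (panels); filled red points passed an adjusted p of 0.05 over all genes tested. Dnmt3b lies apart from the others at 1.43 in cluster cells by GFP and at 1.83 in GFP+ cells by class, while in endothelial cells by GFP the called genes lie on both sides of 0, from -0.46 for Tet1 to 0.67 for Dnmt3a.

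A list of 9 further genes of Polycomb repressive complex 2 held accessory factors together with Rbbp4 and Rbbp7, which are often counted as core. Of the list, 8 passed the filter on dim probes. In GFP+ against GFP- endothelial cells 5 of the 8 rose and 0 fell, with a median log2 difference of 0.25 beside -0.13 for all genes, where 18.1% of genes rose. These 5, named after their values were seen, were Aebp2 (0.54), Phf1 (0.44), Phf19 (0.35), Jarid2 (0.28) and Mtf2 (0.22), factors that guide the complex to DNA or tune its activity. In cluster cells Phf19 rose by 0.42 with GFP and Epop, also named after its values were seen, fell by 0.35, beside 11.8% of all genes called higher and 20.9% lower. In cluster against endothelial cells, Jarid2 rose and Epop fell among GFP+ cells (26.1% of all genes higher and 24.2% lower), and Aebp2, Jarid2 and Mtf2 rose among GFP- cells (11.9% higher).

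For Polycomb repressive complex 1 without Bmi1, 20 of 21 listed genes were tested, and calls went both ways in each contrast. In GFP+ against GFP- endothelial cells 5 rose and 4 fell, beside 18.1% of all genes higher and 33.3% lower, and in GFP+ against GFP- cluster cells 3 rose and 4 fell, beside 11.8% and 20.9%. In cluster against endothelial cells 4 rose and 6 fell among GFP+ cells, beside 26.1% of all genes higher and 24.2% lower, and 5 rose and 2 fell among GFP- cells, beside 11.9% and 12.4%. Phc3, a polyhomeotic subunit that polymerises, was 1.03 ± 0.10 higher in GFP+ than in GFP- endothelial cells (means -0.91 and -1.94, adjusted p = 0.000967) and 0.48 higher in GFP+ than in GFP- cluster cells. Its paralogue Phc2, named after its values were seen, fell by 0.77 in GFP+ against GFP- endothelial cells and by 0.45 in GFP+ against GFP- cluster cells. Pcgf5, a paralogue of Bmi1 named on the same basis, was higher by 0.74 in GFP+ cluster than in GFP+ endothelial cells and by 0.38 in GFP- cluster than in GFP- endothelial cells.

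Genes that oppose Polycomb repression, including H3K27 demethylases, H3K4 methyltransferases and SWI/SNF subunits, were tested for 16 of 17 listed. In GFP- cells 6 rose and 1 fell in cluster against endothelial cells, with a median of 0.13 beside 0.0042 for all genes, of which 11.9% were called higher and 12.4% lower. Among GFP+ cells 5 rose and 3 fell in cluster against endothelial cells, beside 26.1% and 24.2% of all genes. In GFP+ against GFP- endothelial cells 5 rose and 3 fell, beside 18.1% and 33.3%. In GFP+ against GFP- cluster cells 1 rose and 4 fell, beside 11.8% and 20.9%, and the called differences ran from 0.19 for Kdm6a to -0.22 for Bap1. Kdm6b, an H3K27 demethylase, had an interaction of -0.48 (adjusted p = 0.00921). Kdm6a, Bap1 and Kdm6b were named after their values were seen.

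Partners of the DNA methylation enzymes were tested for all 24 listed. In GFP+ against GFP- endothelial cells 9 rose and 8 fell, beside 18.1% of all genes higher and 33.3% lower, and in GFP+ against GFP- cluster cells 2 rose and 3 fell, beside 11.8% and 20.9%. In cluster against endothelial cells 5 rose and 8 fell among GFP+ cells, beside 26.1% and 24.2% of all genes, and 4 rose and 1 fell among GFP- cells, beside 11.9% and 12.4%. The 8 of 24 that fell in endothelial cells by GFP are the same share as over all genes. Uhrf1, which brings Dnmt1 to replicating DNA, averaged 4.56 in GFP+ and 4.72 in GFP- cluster cells and 4.02 in GFP+ and 4.71 in GFP- endothelial cells. It was lower by 0.68 ± 0.055 in GFP+ than in GFP- endothelial cells (adjusted p = 0.000573), while Dnmt1 itself had -0.051 there. Tdg, the glycosylase that excises oxidised methylcytosine, was lower by 0.86 ± 0.075 in the same comparison (adjusted p = 0.000689). Tet3, the remaining Tet gene, averaged -2.43 in GFP+ cluster against -3.48 in GFP+ endothelial cells, a difference of 1.05 ± 0.13 (adjusted p = 0.00192). Zbtb4, a reader of methylated DNA, was 1.37 ± 0.068 higher in GFP+ than in GFP- endothelial cells (adjusted p = 0.00017). Cxxc4, a CXXC-domain gene that lies beside Tet2, was not well above background on either GFP+ cluster array. It was at least 1.81-fold lower there than in GFP+ endothelial cells, a bound that was not itself tested. The fitted difference, which takes the values below background as read, was -1.14 (adjusted p = 0.00521). Uhrf1 and Tdg were named after their values were seen.

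Replication and cell cycle genes are given beside these lists because Dnmt1, Uhrf1 and Ezh2 are known to be higher in dividing cells. Of 38 tested, 0 rose and 12 fell in GFP+ against GFP- cluster cells, beside 11.8% of all genes higher and 20.9% lower, and 3 rose and 18 fell in GFP+ against GFP- endothelial cells, beside 18.1% and 33.3%. In cluster against endothelial cells 10 rose and 6 fell among GFP+ cells, beside 26.1% and 24.2% of all genes, and 5 rose and 3 fell among GFP- cells, beside 11.9% and 12.4%. Their summed level was 471 to 481 in GFP+ and 530 to 536 in GFP- cluster cells, and 459 to 466 in GFP+ and 527 to 542 in GFP- endothelial cells. The part of the replication genes in the differences of Uhrf1 and Dnmt1 was not tested.

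Germline genes that DNA methylation is known to silence were mostly dim, with 7 of 19 listed genes passing the filter and 3 of these well above background on all 8 arrays. Because a dim gene passes only through the group where it is high, no count over this list is read. Ddx4, a germ cell helicase, averaged -3.59 in GFP+ against -4.76 in GFP- cluster cells and -3.95 in GFP+ against -5.22 in GFP- endothelial cells, where 1 of 2 arrays was above background, with differences of 1.17 (adjusted p = 0.00348) and 1.27 (adjusted p = 0.00189). Rpl10l was well above background on both GFP- endothelial arrays, on 1 of 2 arrays in each cluster group and on neither GFP+ endothelial array. It passed the filter only through GFP- endothelial cells, so its differences are not read. Rpl10l is a near copy of Rpl10, so its probe may not be specific.

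**Figure D4:**
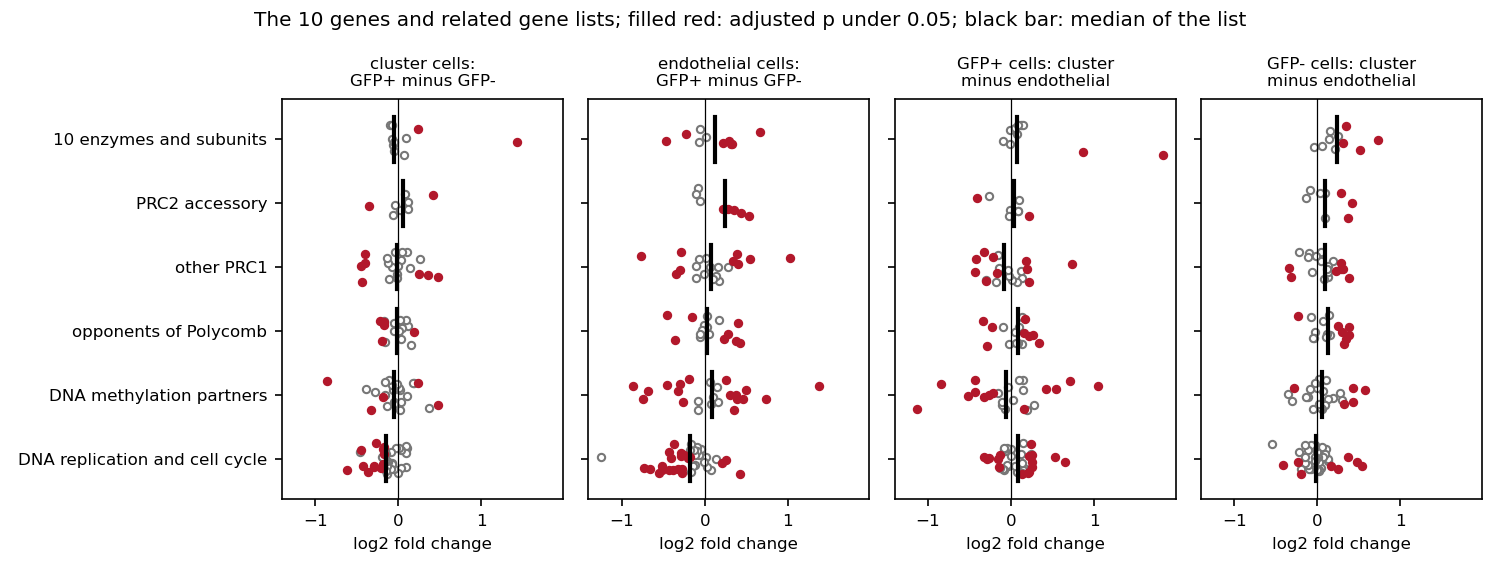
Log2 differences (horizontal axis) of the 10 genes and of 5 related gene lists (rows) in the 4 contrasts (panels); points are genes, filled red where the adjusted p was under 0.05, and black bars are list medians. The list labelled PRC2 accessory, which also holds Rbbp4 and Rbbp7, lies to the right in endothelial cells by GFP (median 0.25). Replication genes lie to the left there (median -0.18), while the PRC1 and DNA methylation partner lists spread to both sides.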

How the data were processed

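Each of 4 sorted populations was measured on 2 arrays from amplified fractions of 1 RNA, per the labels' protocols. The deposited intensity values are the processed signal of Agilent Feature Extraction 10.10.1.1, already background-corrected per the file headers, and probe positions are those of the array design (mm9). From these, log2 of the signal minus the array's 75th percentile was computed here. Spots flagged as outliers were left out (10 probes), and no spot was saturated. Of the probes, 26049 were named by accession, 3194 by current symbol and 10176 as in the file, with RefSeq (GRCm38.p6). The brightest probe stood for a gene, and a gene entered the test if the 2 arrays of some group both read it well above background.

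limma 3.58.1 (R 4.3.3) was fitted to 4 group means with 4 residual degrees of freedom, two-sided, with Benjamini-Hochberg adjustment over 19538 genes and a threshold of 0.05. Precision is limited by the number of arrays. The fit was tested on simulated data with independent noise on each array, which does not cover the pairing of arrays described below. The 10 genes and the lists were chosen with earlier results of these data known. Named from the lists were genes called with at least a 2-fold difference, up to 4 each way per list and contrast, and any other was named after its values were seen. For a gene whose group means spanned at least 1 log2 unit, the 3 genes of highest Pearson r were named.

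Replicate number marks the slide, which holds 1 array of every group, whereas the position on the slide and the group cannot be told apart. Deviations from the group means of same-numbered arrays correlated at 0.139 to 0.359 over all 6 pairs of groups, and the numbers were therefore taken to pair the arrays. The main fit did not include this pairing. The authors' normalized intensity table, made with a normalization not given in the sources used here, matched the scanner values (r of 0.997 to 1.000) with a median of 198 on each array. It served as an alternative, as did quantile normalization, normexp with an offset of 50, other filters, the mean of a gene's probes, every probe on its own, the replicate block, another moderation, the compared groups alone, single slides, and each array left out. Keeping outlier-flagged spots, and normexp without spots of high local background, were chosen after seeing the data.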

Additional observations from a re-analysis of the deposited data

Results flagged for a closer look

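For 4 of the 10 genes the difference by GFP in cluster cells differed from that in endothelial cells by the interaction term of the limma fit, beside 31.1% of all genes called by it. Dnmt3b had an interaction of 1.10 ± 0.094 on the log2 scale (adjusted p = 0.00214), with GFP differences of 1.43 in cluster cells and 0.32 in endothelial cells. Tet1 had 0.56 ± 0.089 (adjusted p = 0.00924), with 0.095 in cluster and -0.46 in endothelial cells. Suz12 had -0.37 ± 0.066 (adjusted p = 0.0126), with -0.078 in cluster and 0.29 in endothelial cells. Dnmt3a had -0.43 ± 0.073 (adjusted p = 0.0107), with 0.24 in cluster and 0.67 in endothelial cells. Each of these calls was lost under some alternative. With normexp background correction all 4 were lost (adjusted p from 0.365 to 0.611). With dim probes kept Suz12 had an adjusted p of 0.0613 and Dnmt3a of 0.0514. Under normexp without 2 spots of high local background Dnmt3a had 0.0633, and the other 3 calls were kept. Tet1 had an interaction of 0.28 (adjusted p = 0.112) with the mean of its probes, and Dnmt3b had 0.71 (adjusted p = 0.0910) with a flagged spot kept. The erythroid and macrophage sums moved with GFP in both cell classes, and their part in these interactions was not tested.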

How the results depend on the processing

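The main counts of genes called were 6397 for GFP in cluster cells, 10061 for GFP in endothelial cells, 9840 for class in GFP+ cells, 4742 for class in GFP- cells and 6085 for the interaction, and of the 10 genes 2, 7, 2, 4 and 4 were called. For a gene called in a contrast, an alternative kept its direction and, where tested, its call in 360 cases, kept direction and lost the call in 51, moved within a single slide by more than the replicate spread in 2, and turned direction in 1. Where a difference had not passed, an alternative kept direction and called it in 16 cases. These were Eed for class in GFP+ cells, Ezh1 and Tet2 for class in GFP- cells, and Ezh1 and Tet2 for the interaction. Eed had 0.17 (adjusted p = 0.0379) after quantile normalization and 0.20 (adjusted p = 0.0219) in the authors' table. Ezh1 passed at adjusted p from 0.0177 to 0.0485 for class in GFP- cells and from 0.0141 to 0.0419 for the interaction. Normexp gave 127, 100, 137, 14 and 1 genes and 1, 0, 1, 0 and 0 of the 10. On 1 array it met 2 spots with a local background above 1000, up to 32268. Without those spots it gave 4616, 7661, 7128, 2738 and 3781 genes and 1, 6, 2, 4 and 3 of the 10. With dim probes kept the counts were 3792 for GFP in cluster cells (1 of the 10), 1466 for class in GFP- cells and 2743 for the interaction (2 of the 10). With the compared groups alone they were 2576 for class in GFP- cells, and 1 of the 10 for GFP in cluster cells. Leaving out 1 array gave 3679 to 5736 genes (1 to 2 of the 10) for GFP in cluster cells, 7216 to 10080 (4 to 7) for GFP in endothelial cells, 7466 to 9137 (2 in each case) for class in GFP+ cells, 1606 to 4214 (3 to 4) for class in GFP- cells and 3589 to 4657 (4 in each case) for the interaction. The replicate block added the call of Tet2 for class in GFP- cells and changed no other call of the 10 genes. Apart from Eed in endothelial cells, which passed in the main setting and had 0.023 under normexp, every value that turned direction belonged to a difference that had not passed. Under normexp these were Ezh2 0.16 and Dnmt1 0.057 for GFP in endothelial cells, Tet2 0.078 for class in GFP+ cells, Eed 0.21 for class in GFP- cells and Eed -0.080 for the interaction. Under normexp without the 2 spots they were Bmi1 -0.010 for GFP in endothelial cells, Tet2 0.078 for class in GFP+ cells, Dnmt1 -0.0029 for class in GFP- cells, and Ezh2 0.020 and Dnmt1 0.086 for the interaction. Quantile normalization and the authors' table gave Eed 0.056 and 0.060 for GFP in cluster cells, Suz12 0.014 and 0.0091 and Tet2 0.017 and 0.014 for class in GFP+ cells, Eed 0.055 and 0.044 for class in GFP- cells and Dnmt1 0.0030 and 0.0097 for the interaction, and quantile normalization gave Ezh2 0.0026 for GFP in endothelial cells. The mean of the probes gave Bmi1 -0.060 for class in GFP+ cells. Leaving out 1 array, Bmi1 ran from -0.16 to 0.042 for GFP in cluster cells, from -0.034 to 0.062 for GFP in endothelial cells, from -0.032 to 0.17 for class in GFP+ cells and from -0.17 to 0.028 for the interaction. Dnmt1 ran from -0.14 to 0.032 for GFP in endothelial cells, from -0.037 to 0.13 for class in GFP+ cells and from -0.089 to 0.079 for the interaction. Eed ran from -0.099 to 0.025 for class in GFP- cells, Ezh2 from -0.097 to 0.045 for the interaction, and for class in GFP+ cells Suz12 ran from -0.042 to 0.0095 and Tet2 from -0.073 to 0.046. The cause of these turns was not tested. All probes used for the 10 genes were well above background on every array.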
